A study of Mus musculus with 2 samples.

Results

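Among cells sorted from the mouse lung, 608 of 15345 with at least 500 detected genes carried a mitochondrial share above 10% and at most 20% of their unique molecular identifiers (UMIs, the tags that count RNA molecules). These high-mitochondrial cells were chosen by that share alone, which is itself a measured value. They are set beside the 14209 reference cells of the same libraries with at least 500 genes and a share of at most 10%. A cell here is 1 barcode of the count matrices, which hold 18938 barcodes in all. The library labelled WT held 302 high-mitochondrial cells (4.31% of its 7013 cells with 500 genes, exact Clopper-Pearson interval 3.84% to 4.81%) and 6443 reference cells. The library labelled IPKO held 306 of 8332 (3.67%, 3.28% to 4.10%) and 7766 reference cells. A further 268 and 260 cells lay above 20%.

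Both libraries came from male mice and were made from lung cells sorted as EpCAM+CD31-CD34-CD45-CD24-Sca-1- and labelled alveolar type 2 (AT2) epithelial cells. One is labelled wild type (WT) and the other IP-/- (IPKO), a genotype without the prostaglandin I2 receptor, which the gene Ptgir encodes. The labels name no injury, treatment or age, and do not say whether animals were pooled. With 1 library per label and groups cut by a measured value, no test was possible. Every interval is a 95% interval that covers counting error only, and a difference between the libraries may lie within the unmeasured spread between animals. Ptgir itself had 0 UMIs in the high-mitochondrial cells and 1 in the reference cells of the library labelled WT. It had 3 and 325 in the library labelled IPKO, so it ran against the labels. The sources used here do not say which part of the gene was deleted, and 3' tags from an intact part may still be counted. That concerns the UMIs labelled IPKO and not the low count labelled WT. The reason for either was not tested, so the libraries are named by label throughout.

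Mitochondrial transcripts are made and kept inside the organelle, and a few long noncoding RNAs stay in the nucleus: Malat1 in nuclear speckles, Neat1 as the scaffold of paraspeckles, and Kcnq1ot1 on the chromatin of an imprinted domain. Most messenger RNA, in contrast, is translated in the cytoplasm, and the AT2 cell devotes much of it to the surfactant proteins that lower surface tension in the alveolus. In single-cell work a high mitochondrial share is widely used as a filter for damaged cells. Immediate early and heat shock genes are known to respond to tissue dissociation.

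The high-mitochondrial cells carried AT2 RNA. At least 3 of 12 AT2 markers, together at least 0.5% of non-mitochondrial UMIs, were found in 302 of 302 cells labelled WT and in 305 of 306 labelled IPKO, and in 6401 of 6443 and 7666 of 7766 reference cells. Labelled WT, 65 reference cells passed this rule with endothelial markers, more than failed it with AT2 markers, so some passed both. Sftpc, the surfactant protein C gene, made up at least 1% of the non-mitochondrial UMIs in 300 and 302 high-mitochondrial cells (99.3% and 98.7%) and in 98.2% and 96.8% of reference cells. At a minimum of 5% the order turned, with 88.7% and 84.3% of high-mitochondrial and 97.5% and 96.0% of reference cells. A Sftpc UMI was present in every high-mitochondrial and every reference cell, those of other lineages included, so its mere presence tells no cell types apart. By the same rule endothelial markers stood out in 2 and 4 cells, mesenchymal markers in 1 and 3, macrophage and monocyte markers in 2 and 0, and club and secretory markers in 0 and 2. T and NK markers passed it in 0 and 1 cells, and ciliated and alveolar type 1 markers each in 0 and 1. No high-mitochondrial cell passed it for B cell, neutrophil or red blood cell markers. In reference cells it passed 65 and 62 for endothelial, 17 and 23 for mesenchymal, and 21 and 65 for macrophage and monocyte markers. Club and secretory markers passed in 16 and 13, T and NK in 6 and 48, ciliated in 3 and 13, and alveolar type 1 in 9 and 19. For B cell, neutrophil and red blood cell markers they were 5 and 28, 6 and 12, and 0 and 2. No such reference share exceeded 1.01%, and intervals for 0 high-mitochondrial cells reach 1.21% and 1.20%. Summed endothelial markers stood at 112 and 158 UMIs per 1000000 non-mitochondrial UMIs (CPM) in the high-mitochondrial cells, against 177 and 196 CPM in the reference cells. Mesenchymal markers stood at 178 and 134 CPM against 97.9 and 139 CPM, with 322 of the 450 UMIs labelled WT in 1 cell. Ciliated markers stood at 109 and 311 CPM against 129.6 and 207 CPM, with 302 of the 537 UMIs labelled IPKO in 1 cell. Club and secretory markers stood at 757 and 11212 CPM against 3666 and 918 CPM, with 18769 of the 19331 UMIs labelled IPKO in 1 cell. All 10 T and NK markers found in the files were at 0 in the 302 cells labelled WT, and Lck, Nkg7, Cd3g and Cd3e were at 0 in the 306 labelled IPKO. A UMI of any of these 10 was in 41 of 6443 reference cells labelled WT and 229 of 7766 labelled IPKO. The libraries share 79 barcode sequences, and 4 high-mitochondrial cells have one of them, none of which is a high-mitochondrial cell in both.

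Non-mitochondrial RNA differed more between the groups than mitochondrial RNA did. The median high-mitochondrial cell had 6882.5 non-mitochondrial UMIs labelled WT and 5082 labelled IPKO, against 17323 and 16227 in reference cells. Mitochondrial UMIs differed less, with medians of 1131 against 947 and of 865 against 649. Below the 5th percentile of reference cells for non-mitochondrial UMIs lay 216 of 302 (71.5%) and 226 of 306 (73.9%), while 49 (16.2%) and 33 (10.8%) lay above their 95th percentile for mitochondrial UMIs. Detected genes had medians of 1859 and 1438, against 3373 and 3322. These quantities make up the share that chose the cells, so they describe the choice and support nothing else. In all, the high-mitochondrial cells held 2902540 and 2000651 UMIs, 2.28% and 1.46% of their libraries.

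**Figure D1:**
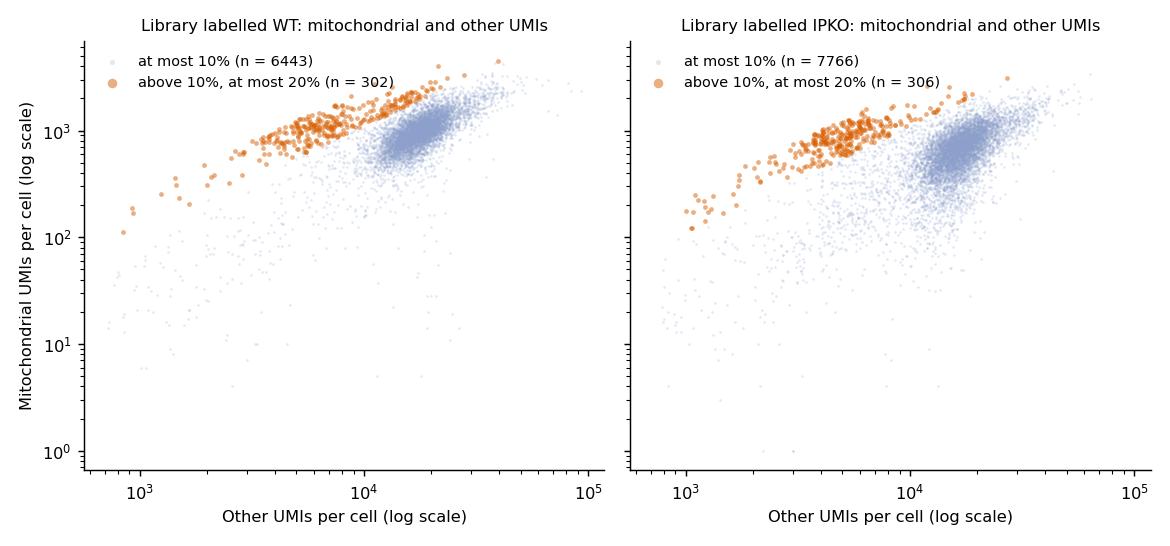
Mitochondrial UMIs (vertical, log scale) against other UMIs (horizontal, log scale) per cell in the library labelled WT (left) and labelled IPKO (right); each point is 1 cell. The 302 and 306 high-mitochondrial cells (orange) lie to the left of most reference cells (blue) at similar or higher mitochondrial UMIs.

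The 13 mitochondrially encoded genes kept nearly the same proportions. Each gene's share of all mitochondrial UMIs was compared between high-mitochondrial and reference cells. mt-Atp6, an ATP synthase subunit, was the most shifted of the abundant ones upward, from 15.6% to 16.5% labelled WT and from 16.2% to 17.5% labelled IPKO (log2 ratios 0.09 and 0.11). mt-Co1, a cytochrome c oxidase subunit, moved the other way, from 15.9% to 14.99% and from 17.0% to 15.5% (-0.09 and -0.13). The largest sizes were in sparse genes of the library labelled IPKO, -0.29 for mt-Atp8 and 0.26 for mt-Nd6.

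For nuclear genes, UMIs were summed over the cells of a group and given as CPM, so that the chosen share does not enter the denominator. Of the 8819 genes tested, each averaging 5 CPM or more, 720 (8.16%) were at least 1.5-fold higher in the high-mitochondrial cells labelled WT and 665 (7.54%) at least 1.5-fold lower. Labelled IPKO, 1324 (15%) were higher and 1535 (17.4%) lower. In both libraries 441 genes (5.0%) were higher and 438 (4.97%) lower by this measure. Across genes the log2 ratios of the 2 libraries, which share no cells, had a Spearman rho of 0.69 and a Pearson r of 0.59, and 6815 genes (77.3%) had the same sign. Genes are not independent replicates, and 33 genes passed 1.5-fold in opposite directions (15 higher and 18 lower labelled WT). How many genes count as higher rather than lower rests on the denominator. With all UMIs below the line the counts in both libraries were 214 higher and 817 lower. Centred on the median gene they were 364 and 572, without the 10 genes with most UMIs 1150 and 187, and without Gm42418, Malat1 and Lars2 1877 and 49. The median of all genes stood at 0.05 and 0.03 as reported and at 0.32 and 0.47 under the last of these, a shift common to all genes, though 9338 then pass the level minimum.

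**Figure D2:**
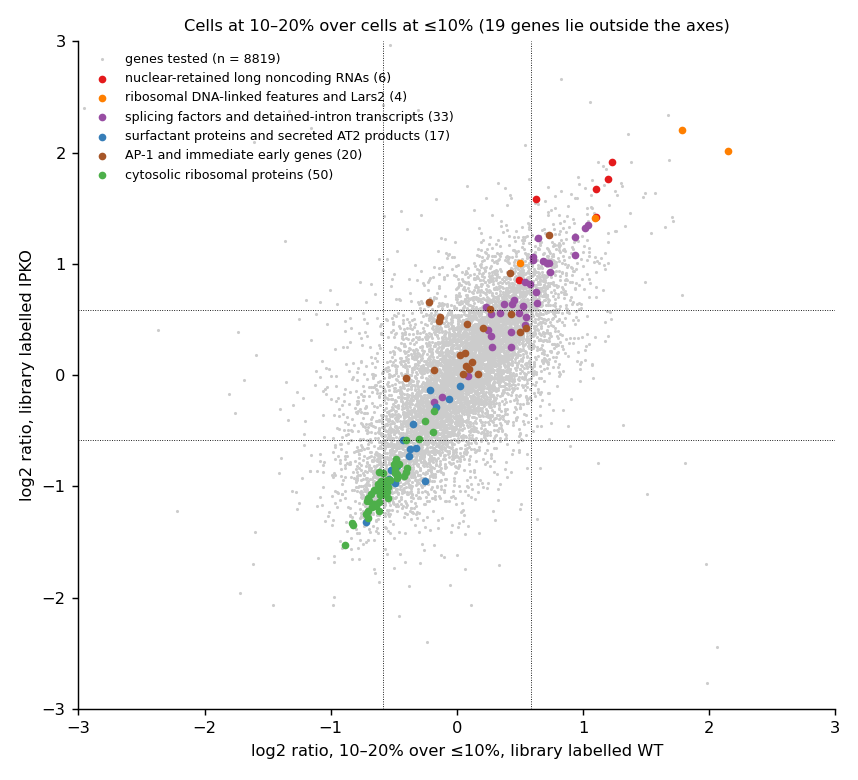
Log2 ratio of high-mitochondrial over reference cells for each of 8819 genes in the library labelled WT (horizontal) and labelled IPKO (vertical); dotted lines mark 1.5-fold, colours mark 6 gene lists, and 19 genes lie outside the axes. Nuclear-retained RNAs (red) and ribosomal DNA-linked features with Lars2 (orange) lie at the upper right, and ribosomal protein genes (green) at the lower left.

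Nuclear-retained long noncoding RNAs were higher in the high-mitochondrial cells of both libraries. Of 21 entries 12 were found in the files and 6 reached 5 CPM. Of these 6, 5 (83.3%) were at least 1.5-fold higher in both, against 5.0% of all genes, and none was lower. The medians of log2 ratios were 1.10 and 1.63, against 0.05 and 0.03 over all genes. The direction was the same under every alternative run, from 0.86 to 1.69 labelled WT and from 1.24 to 2.06 labelled IPKO. This list and its leading genes were chosen with their values in these libraries known, so the counts describe them and are not independent evidence.

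Malat1, an abundant RNA of the nuclear speckles on chromosome 19 (5795690 to 5802672, minus strand, GRCm38), stood at 44192 CPM in high-mitochondrial against 18805 CPM in reference cells labelled WT. Labelled IPKO it stood at 65740 against 17414 CPM. The ratios were 2.35-fold (log2 1.23, interval 1.22 to 1.24) and 3.78-fold (1.92, 1.91 to 1.93). Malat1 UMIs per cell were also higher, by less: the median was 345 (quartiles 181.25 and 529.75) against 288 (120 and 501) labelled WT, and 375 (226 and 518) against 252 (105 and 423) labelled IPKO. The interquartile ranges overlap in both libraries. As a share of non-mitochondrial UMIs, 159 of 302 (52.6%) and 232 of 306 (75.8%) exceeded the 95th percentile of reference cells. As UMIs, 15 and 17 did.

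Neat1 lies next to Malat1 on chromosome 19 (5824708 to 5845478). It stood at 1023 against 477 CPM labelled WT (log2 ratio 1.10, 1.04 to 1.16) and at 1151 against 362 CPM labelled IPKO (1.67, 1.60 to 1.73). In UMIs per cell its median was 7 in both groups labelled WT, and 6 against 4 labelled IPKO. Kcnq1ot1, a 93092-base unspliced antisense RNA of chromosome 7, stood at 192 against 89.4 CPM (1.11, 0.97 to 1.24) and at 230 against 86.2 CPM (1.42, 1.27 to 1.56). Thinned to 1000 non-mitochondrial UMIs per cell, Neat1 was expected in 60.4% of high-mitochondrial and 34.5% of reference cells labelled WT, and in 64.4% and 27.8% labelled IPKO (3 high-mitochondrial cells labelled WT and 13 and 20 reference cells were too shallow). Without thinning the shares were 96.0% and 95.4%, and 95.8% and 92.0%. Barcodes with fewer than 500 genes had it in 33.0% and 28.5%, at median depths of 219 and 243 UMIs against 6882.5 and 5082 in the high-mitochondrial cells. The likewise thinned shares for Kcnq1ot1 were 16.9% and 8.0%, and 19.7% and 7.79%. Ftx, a noncoding RNA of the X-inactivation centre, was low at 5.95 against 2.59 CPM (1.20) and 11 against 3.24 CPM (1.77). Meg3, an imprinted maternal RNA, had ratios of 0.63 and 1.59. Airn, an imprinted antisense RNA, had 0.50 and 0.85, each with an interval that includes 0.

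More widely, 43 of the 120 tested genes that the GENCODE vM21 annotation does not class as protein coding (35.8%) were higher in both libraries. Of all genes 5.0% were. Lower in both were 10 (8.33%), against 4.97% of all genes, and the medians were 0.44 and 0.72. Among the 12 highest genes of at least 20 CPM were Snhg11, annotated as protein coding although it hosts small nucleolar RNAs (1.30 and 1.73), the lincRNA Gm26522 (1.38 and 1.91) and the antisense RNA A530020G20Rik (1.03 and 1.51). Not every noncoding RNA was high. Of 5 tested host genes of small nucleolar RNAs, whose spliced transcripts are exported and decayed, Snhg18 was lower in both (-0.84 and -0.80), Snhg6 was at -0.29 and -1.69, and Snhg20 was higher in both (0.77 and 1.17), with a list median of -0.29 and -0.78. Thus 1 of 5 passed 1.5-fold in each direction in both libraries. The median labelled WT took either sign among the alternatives (from -0.61 to 0.27). Snhg11, named above, is not on this list.

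Features tied to ribosomal DNA, with Lars2, formed the other leading group, and 3 of 4 were higher in both libraries, with medians of 1.44 and 1.71. Gm42418 held the most UMIs of any nuclear gene in the high-mitochondrial cells, 21.3% labelled WT and 26.8% labelled IPKO, at 213129 against 99647 CPM (log2 1.10) and 267943 against 100666 CPM (1.41). It lies on chromosome 17 (39846958 to 39848788, plus strand) within an annotated ribosomal RNA gene (39846353 to 39848827, minus strand). AY036118 (39847113 to 39848035, minus strand) lies inside Gm42418 on the other strand, so reads of the pair may be hard to assign. It had ratios of 0.50 and 1.01. Gm26917, which ends just before this locus, was at 109 against 24.7 CPM (2.15) and 130.5 against 32.3 CPM (2.01). Per cell the median Gm42418 UMIs were 1766 against 1695 labelled WT and 1516.5 against 1623 labelled IPKO. The high-mitochondrial cells thus held about the reference number of Gm42418 UMIs within a smaller total.

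Lars2, the nuclear gene for mitochondrial leucyl-tRNA synthetase, stood at 9022 against 2614 CPM labelled WT (3.45-fold, log2 1.79, 1.77 to 1.81) and at 13362 against 2896 CPM labelled IPKO (4.61-fold, 2.21, 2.19 to 2.23). In UMIs per cell its medians were 75 against 44 and 78 against 46. It exceeded the reference 95th percentile in UMIs in 98 of 302 cells (32.5%) and in 131 of 306 (42.8%). Across the high-mitochondrial cells its share followed that of Gm42418 closely (Spearman rho 0.88 over 302 cells and 0.84 over 306), more than that of Malat1 (0.43 and 0.10). Shares within 1 cell have a common denominator, and no p is given. Nuclear genes for the mitochondrial machinery did not share this pattern. Of 23 tested genes of import, biogenesis and quality control, 4 (17.4%) were lower and none higher in both libraries. The shares of all genes were 4.97% lower and 5.0% higher. Tomm22, a receptor of the import complex, had ratios of -0.84 and -0.91, and Polg, the mitochondrial DNA polymerase, 0.48 and 0.69.

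**Figure D3:**
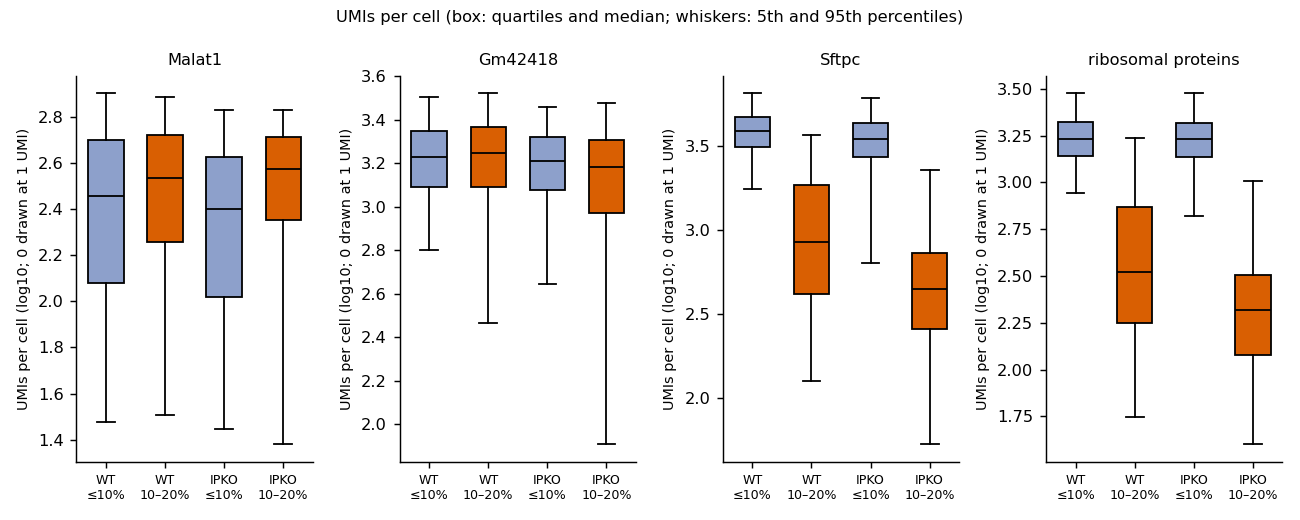
UMIs per cell of Malat1, Gm42418, Sftpc and summed ribosomal protein genes (log10 scale, a count of 0 drawn at 1 UMI) for reference (blue) and high-mitochondrial cells (orange) of each library; boxes give quartiles and median, whiskers the 5th and 95th percentiles. Malat1 and Gm42418 boxes overlap between the groups, while those of Sftpc and ribosomal proteins are lower in the high-mitochondrial cells.

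Splicing factors and genes with detained introns, whose incompletely spliced transcripts are held in the nucleus, were higher as a group. Of 33 tested, 13 (39.4%) were higher and none lower in both libraries, against 5.0% and 4.97% of all genes, with medians of 0.54 and 0.64. Pnisr, a serine and arginine-rich splicing-associated protein, stood at 170.5 against 83.0 CPM (log2 1.04) and 216 against 84.8 CPM (1.35). Ogt, the O-GlcNAc transferase with a well-known detained intron, had ratios of 1.01 and 1.33. Srsf3 and Srsf7, also splicing factors, were at the other end with -0.18 and -0.24, and -0.12 and -0.20. All 23 large chromatin and nuclear protein genes had ratios above 0 in both libraries (medians 0.42 and 0.56). However, 1 of 23 (4.35%) passed 1.5-fold in both, near the 5.0% of all genes. That was Ankrd11, a chromatin regulator (0.61 and 1.09). The histone methyltransferase gene Setd2 had 0.54 and 1.24.

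AT2 genes did not move as a block. Sftpc was lower, at 153271 against 222116 CPM labelled WT and 112212 against 214936 CPM labelled IPKO, 1.45-fold (log2 -0.54, interval -0.54 to -0.53) and 1.92-fold (-0.94, -0.94 to -0.93). In UMIs per cell the median was 841 (quartiles 412.25 and 1839.75) against 3855 (3106 and 4711), and 443 (258 and 727.5) against 3490 (2716 and 4315). These interquartile ranges do not overlap. Sftpa1, surfactant protein A, had ratios of -0.48 and -0.82. Sftpd, surfactant protein D, had -0.17 and -0.29, and Sftpb, surfactant protein B, 0.03 and -0.10, both turning with the denominator or reference used. Sftpb thus kept its share of the non-mitochondrial RNA to within 1.07-fold while Sftpc did not.

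Of 17 surfactant proteins and secreted AT2 products, 1 was lower and none higher in both libraries (medians -0.38 and -0.67). That gene was Bex4 (-0.72 and -1.32), 5.88% of the list and near the 4.97% of all genes. Labelled WT, 2 (11.8%) were lower and none higher, against 7.54% of all genes lower. Labelled IPKO, 11 (64.7%) were lower and 1 higher, against 17.4% of all genes lower. The 1 higher was Scgb1a1, the club cell secretoglobin gene (3.65). Of its 17861 UMIs in high-mitochondrial cells, 17416 came from 1 cell. With reference cells reweighted to the depth of the high-mitochondrial cells the list medians were -0.084 and -0.091. That reweighting leans on shallow reference cells, many of which held little Sftpc. At 3000 to 5000 UMIs their median was 20 and 26 Sftpc UMIs, against 205 and 275 in high-mitochondrial cells. With an Sftpc share of at least 1% also required, the list medians were -0.23 and -0.38. Sftpc stayed negative under each alternative run (from -1.07 to -0.21 labelled WT and from -1.28 to -0.30 labelled IPKO). Lyz2, the lysozyme gene, was at 21659.9 against 31595 CPM (-0.54) and 18259.7 against 35506.5 CPM (-0.96). Of 16 surfactant lipid and membrane genes, Fabp5, a fatty acid binding protein, was lower in both (-0.69 and -1.25), 6.25% of the list and near the share of all genes. Abca3, the lamellar body lipid transporter, stood at 0.35 and 0.44 (list medians -0.05 and -0.17, with either sign among the alternatives). Among 13 lineage transcription factors none passed 1.5-fold in both. Nkx2-1, the lung epithelial regulator, was at 419.9 against 329 CPM (0.35) and 534 against 379.9 CPM (0.49), and Id2 at -0.34 and -0.89. Of 16 transitional-state genes, linked to the passage from AT2 to alveolar type 1 cells, S100a6 (-0.93 and -1.49) and S100a10 (-0.72 and -1.13) were lower in both. They are 12.5% of that list, against 4.97% of all genes. Of 24 fatty acid and sterol synthesis genes none passed in both (medians 0.04 and 0.03).

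The translation apparatus was low. All 50 cytosolic ribosomal protein genes had ratios below 0 in both libraries, and 27 (54.0%) were at least 1.5-fold lower in both, against 4.97% of all genes (medians -0.59 and -1.0). Rpl10 was lowest, at 1091 against 2021 CPM (-0.89) and 777 against 2234 CPM (-1.52), and Rpl4 was least changed (-0.18 and -0.32). Summed ribosomal protein UMIs per cell had medians of 331 against 1704 labelled WT and 209.5 against 1698 labelled IPKO. In 210 of 302 and 267 of 306 high-mitochondrial cells their share lay below the 5th percentile of reference cells. Across the high-mitochondrial cells the ribosomal protein share followed that of Sftpc (rho 0.81 and 0.72) and ran against that of Malat1 (-0.70 and -0.52). These shares have a common denominator. Both also followed total UMIs, with rho of 0.59 and 0.38 for ribosomal proteins and 0.63 and 0.45 for Sftpc. The part of either in these correlations was not tested. Of 18 translation factors 3 (16.7%) were lower in both, against 4.97% of all genes. Among them were Eef1b2 (-0.74 and -1.08) and Btf3 (-0.60 and -1.02), while the elongation factor Eef2 was at 0.25 and 0.17.

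Nuclear genes of the respiratory chain were low in these cells, which were chosen for their mitochondrial share and not for the amount of mitochondrial RNA. All 35 tested had ratios below 0 in both libraries (medians -0.52 and -0.99). By at least 1.5-fold, 13 (37.1%) were lower in both, against 4.97% of all genes. Cox8a, a cytochrome c oxidase subunit, stood at 324 against 582 CPM (-0.84) and 251 against 575 CPM (-1.20). Cox6b1 had -0.89 and -1.04, and Sdha, the flavoprotein of complex II, -0.22 and -0.31. The share of these genes per cell lay below the reference 5th percentile in 210 of 302 and 267 of 306 cells. Of 27 proteasome subunits 6 (22.2%) were lower in both, including Psmb5 (-0.72 and -1.33). Of 30 genes of the translocon and secretory pathway 7 (23.3%) were lower in both, including Sec61b (-0.80 and -1.24). Copa, a coatomer subunit, was at 0.12 and 0.11. Tmsb4x, the actin-binding thymosin, was at 4911 against 7585 CPM (-0.63) and 3833 against 8351 CPM (-1.12), the 1 of 25 actin cytoskeleton genes that was lower in both (4.0%, against 4.97% of all genes).

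Stress genes were mixed, and no stress list stood as high as the nuclear RNAs. In lists of 16 to 25 genes, 1 gene past 1.5-fold in both libraries is 4.0% to 6.25% of the list, near the shares of all genes. Of 20 AP-1 and immediate early genes, Fosb passed 1.5-fold in both libraries, at 539 against 326 CPM labelled WT (0.73, 0.65 to 0.81) and 1681 against 701 CPM labelled IPKO (1.26, 1.21 to 1.32), and none was lower in both. The list medians of 0.09 and 0.40 took either sign among the alternatives, and were -0.68 and -0.095 with reference cells reweighted to the same depth. With an Sftpc share of at least 1% also required, they were -0.073 and 0.087. Jun was at 1162 against 821 CPM (0.50, 0.45 to 0.55) and 1968 against 1503 CPM (0.39, 0.34 to 0.44). In UMIs per cell Jun was lower in the high-mitochondrial cells, with medians of 7 against 11 and 9 against 20. Fos had ratios of 0.06 and 0.20, Egr1 0.26 and 0.60, and Atf3 -0.13 and 0.52. Nr4a1, a nuclear receptor induced early, had 0.42 and 0.92. The summed share of the AP-1 list exceeded the reference 95th percentile in 40 of 302 cells (13.2%) and in 71 of 306 (23.2%).

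Heat shock chaperones gave medians of -0.09 and 0.05 over 18 genes. None was higher and 2 (11.1%) were lower in both libraries, against 4.97% of all genes lower. Those 2 were Hspe1, the mitochondrial chaperonin 10 (-0.80 and -0.84), and Ahsa1, an HSP90 cochaperone (-0.70 and -0.62). Hspa1a, the inducible HSP70, stood at 105 against 85.4 CPM labelled WT (0.31, 0.12 to 0.48) and 807 against 584 CPM labelled IPKO (0.47, 0.39 to 0.54). Of 23 genes of the unfolded protein and integrated stress response, none was higher and 1 lower in both (medians -0.05 and -0.10). Sdf2l1, an endoplasmic reticulum protein, was that gene (-1.06 and -0.81), though its interval labelled IPKO reaches 0.12. Ddit3, which encodes CHOP, was at 15.9 against 14.8 CPM (0.10, -0.39 to 0.55) and 16.2 against 14.5 CPM (0.17, -0.43 to 0.70), a difference not detectable at this depth. Ppp1r15a had 0.27 and 0.98.

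Of 17 p53 target genes none was higher in both libraries and Perp was lower (-0.62 and -0.90). Cdkn1a, the p21 gene, was at 42.4 against 50.01 CPM (-0.24, -0.53 to 0.04) and 41.2 against 49.2 CPM (-0.26, -0.62 to 0.08), so that both intervals include 0. Of 18 apoptosis regulators Birc2, an inhibitor of apoptosis, was higher in both (0.81 and 0.93) and Bad, a promoter of apoptosis, lower (-0.59 and -0.62), each 5.56% of the list and near the shares of all genes (5.0% and 4.97%). Antioxidant and NRF2 target genes were the lowest of the stress lists, with 4 of 21 lower and none higher in both (medians -0.46 and -0.76). Txn1, thioredoxin, stood at 379 against 681 CPM (-0.84) and 285 against 686 CPM (-1.27), and Mt1, a metallothionein, at 63.0 against 124 CPM (-0.98) and 76.0 against 144 CPM (-0.92). Hmox1, heme oxygenase, had -0.48 (-0.79 to -0.19) and -1.02 (-1.51 to -0.57). Gclc, the glutamate-cysteine ligase gene, was at 0.05 and 0.10. Of 11 NF-kB and inflammatory genes Nfkbiz was higher in both (0.80 and 1.17), 9.09% of the list against 5.0% of all genes. The medians of that list were -0.18 and 0.30, and each took either sign among the alternatives. Of 7 MHC class II genes H2-Aa (-0.68 and -0.93) and H2-Eb1 (-0.63 and -0.93) were lower in both (28.6%, against 4.97% of all genes). Of 9 interferon-induced genes Bst2 was lower in both (-1.02 and -1.27), 11.1% of the list against 4.97% of all genes.

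**Figure D4:**
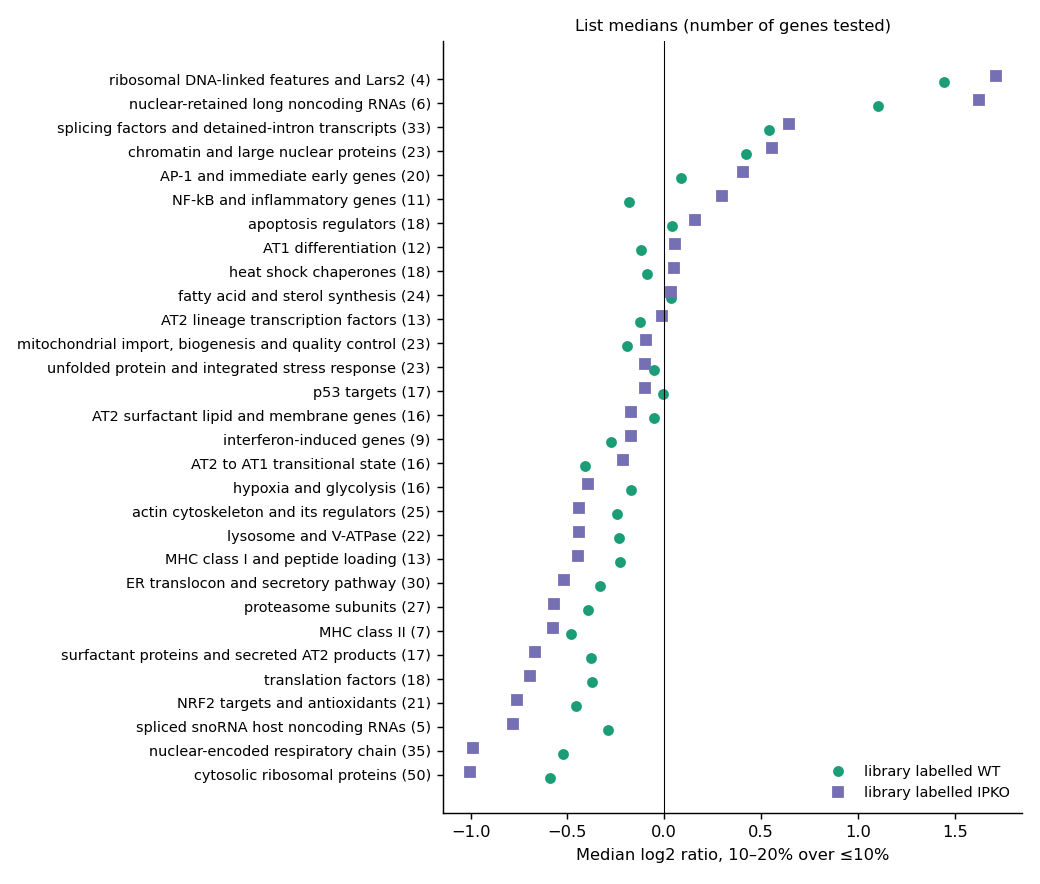
Median log2 ratio of high-mitochondrial over reference cells (horizontal) for each gene list with at least 4 genes tested (vertical, number in brackets), in the library labelled WT (circles) and labelled IPKO (squares). Lists of nuclear RNAs and large nuclear proteins lie right of 0 and ribosomal protein and respiratory chain genes lie farthest left, while most stress lists lie near 0.

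The ratios followed transcript length. Among 8694 tested protein coding genes, the 1741 shortest by annotated transcript (374 to 1992 bases) had median log2 ratios of -0.36 labelled WT and -0.61 labelled IPKO, and the next length classes of like size -0.08, 0.07, 0.18 and 0.29, and -0.18, 0.07, 0.22 and 0.39. Of the shortest class 317 genes (18.2%) were lower in both libraries and 9 (0.52%) higher, and of the longest (5480 bases and more) 5 (0.29%) were lower and 167 (9.60%) higher. Across genes Spearman's rho between length and ratio was 0.54 and 0.58. Several of the lists differ in length the same way, though not all. Of the ribosomal protein genes 42 of 50 were in the shortest class, of the respiratory chain genes 26 of 35, of the surfactant and secreted products 12 of 17, and of the antioxidant genes 10 of 21. All 23 large nuclear protein genes were in the longest. Of the immediate early genes, by contrast, 7 of 20 were in the shortest class and 1 in the longest, with medians of 0.09 and 0.40. Of the mitochondrial import, biogenesis and quality control genes 4 of 23 were in each of these classes, with medians of -0.19 and -0.09. Without genes of cytosolic and mitochondrial ribosomes and the respiratory chain, the remaining 1564 short genes still had medians of -0.33 and -0.56. The part of length in each list's value was not tested.

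High-mitochondrial cells differed among themselves. Both the Malat1 and the Gm42418 share exceeded the reference 95th percentile in 125 of 302 cells labelled WT (41.4%) and in 179 of 306 labelled IPKO (58.5%). Malat1 alone did in 34 and 53, Gm42418 alone in 69 and 42, and neither in 74 (24.5%) and 32 (10.5%). Cells with neither held the most RNA, with medians of 15722 and 10124 UMIs against 7173 and 6021 in cells with both, and their mitochondrial share was nearer the lower edge (medians 11.5% and 10.7%, against 15.02% and 14.6%). The Malat1 share followed that of Neat1 (rho 0.69 and 0.59) more than that of Gm42418 (0.32 and -0.13).

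Within the range, levels changed with the mitochondrial share. From cells at 10 to 12.5% to cells at 17.5 to 20%, Malat1 went from 29236 to 83473 CPM labelled WT and from 53117 to 84395 CPM labelled IPKO. Sftpc went from 180775 to 98035 and from 141890 to 84735 CPM, and ribosomal proteins from 8.15% to 3.92% and from 6.77% to 3.85% of non-mitochondrial UMIs. Beyond the range Malat1 and Gm42418 parted. In cells at 30 to 50% Malat1 reached 247753 and 223554 CPM, while Gm42418 stood at 99699 and 96269 CPM, against 317216 and 333915 CPM at 17.5 to 20%. The median Gm42418 UMIs per cell were 77 and 84 there, against 1536.5 and 1345, and the median Malat1 UMIs 401 and 320, against 370.5 and 317. Lars2 went with Gm42418, from 15505 and 18594 CPM to 4891 and 5334 CPM.

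Values on either side of the limits rest on few cells. Just below its lower limit, 80 and 70 cells at 9 to 10% had Malat1 at 26188 and 32168 CPM and Sftpc at 196108 and 175467 CPM. Just above, 56 and 47 cells at 10 to 11% had 25902 and 41851 CPM, and 186353 and 157829 CPM. At the upper limit, 23 and 22 cells at 19 to 20% had Malat1 at 76938 and 77072 CPM, and 13 and 13 cells at 20 to 21% had 71677 and 105038 CPM. Sftpc stood at 99113 and 85654 CPM below that limit and at 100229 and 60943 CPM above it, and Neat1 at 1759.8 and 1339 CPM below and 1764 and 2311 CPM above. Of cells at 10 to 20% with fewer than 500 genes there were 13 and 17. The 1 and 4 of them with at least 400 genes had Malat1 at 44737 and 188675 CPM, and the 5 and 9 high-mitochondrial cells with 500 to under 600 genes at 126499 and 167785 CPM.

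**Figure D5:**
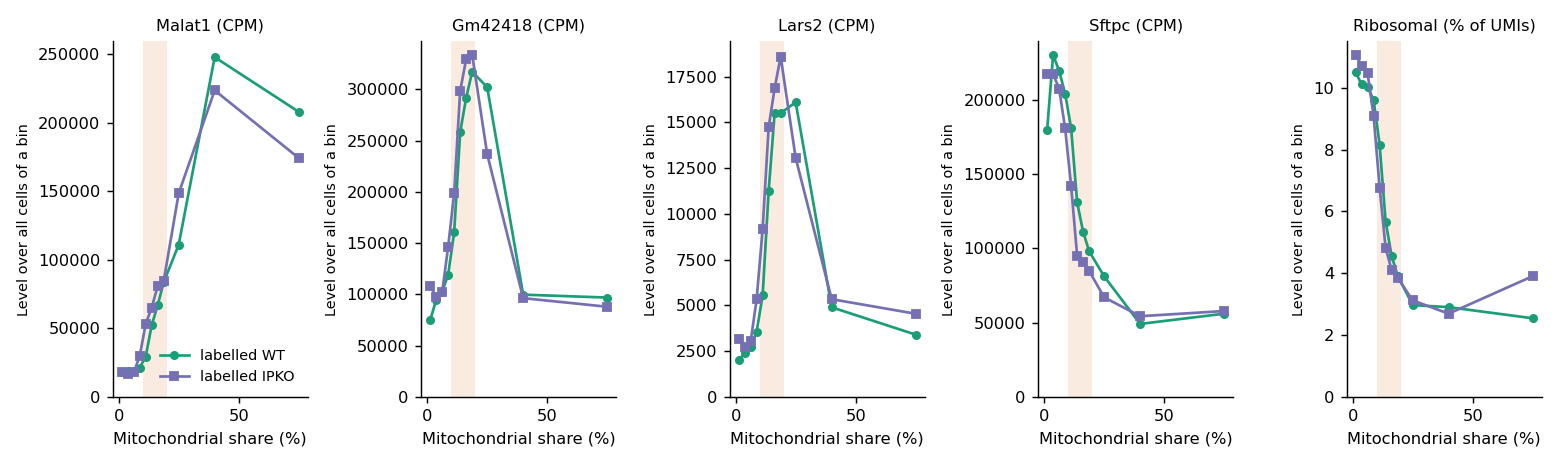
Level of Malat1, Gm42418, Lars2 and Sftpc (CPM) and of ribosomal protein genes (percent of non-mitochondrial UMIs) over all cells of a bin of mitochondrial share (horizontal, each point at the middle of its bin, the last from 50 to 100%), per library; the shaded band is 10 to 20%. Gm42418 is highest at 17.5 to 20% in both libraries, and Lars2 at 20 to 30% labelled WT and 17.5 to 20% labelled IPKO. Both are lower than that beyond 30%, where Malat1 is high.

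Since the high-mitochondrial cells held less RNA, they were also set beside reference cells from 1 range of total UMIs. Of cells with 5000 to 10000 UMIs and at least 1% of non-mitochondrial UMIs from Sftpc, 155 and 177 were high-mitochondrial and 125 and 347 reference cells. This comparison was chosen after seeing the data. There the ratio of Malat1 was 1.37 labelled WT and 1.44 labelled IPKO, that of Neat1 1.28 and 1.30, of Lars2 1.39 and 1.51 and of Gm42418 0.79 and 0.96. Sftpc was at -0.65 and -0.92, and the ribosomal protein median at -0.88 and -0.96. Depth was matched only in part. In the same window without the Sftpc minimum, 156 and 177 high-mitochondrial cells had medians of 6136.5 and 5477 non-mitochondrial UMIs, against 7464 and 7230.5 in 151 and 430 reference cells. The part of the remaining gap in these ratios was not tested. The immediate early list came to -0.02 and 0.078 and the heat shock list to -0.037 and -0.14. Single stress genes varied more there. Atf3 had 0.48 and 0.66, Egr1 0.031 and 0.54, Hspa1a 0.59 and 0.11, Ddit3 0.59 and 0.051, and Jun 0.23 and 0.076. Thinned to 1000 non-mitochondrial UMIs, the median high-mitochondrial cell would show 420 and 407 genes, against 443 and 449 in reference cells.

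Within the high-mitochondrial cells the 2 libraries differed in several stress genes, much as the reference cells did. Of 20 immediate early genes, 15 were at least 1.5-fold higher in the library labelled IPKO and none lower (median log2 ratio 0.62, labelled IPKO over labelled WT), where 9.48% of all genes tested were higher and 8.31% lower. In reference cells 13 were higher and 1 lower (median 0.65), with 1.86% of all genes higher and 1.68% lower. Hspa1a had ratios of 2.94 in high-mitochondrial and 2.77 in reference cells, Atf3 1.68 and 1.03, Egr1 1.30 and 0.97, and Jun 0.76 and 0.87. Labelled IPKO, 13 of 23 unfolded protein response genes were lower in the high-mitochondrial cells and 7 in the reference cells (medians -0.62 and -0.41). MHC class II genes had medians of 0.45 and 0.70. Other groups differed more within the high-mitochondrial cells: Malat1 had 0.57 against -0.11, Sftpc -0.45 against -0.05, and the 50 ribosomal protein genes a median of -0.32 against 0.12. The high-mitochondrial cells labelled IPKO had fewer UMIs (median 5891.5 against 7986) and a higher mitochondrial share (14.4% against 13.4%), and the part of these in the differences was not tested. Genotype, animal and library cannot be told apart here.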

How the data were processed

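Per the labels' protocols, libraries were made with the 10x Chromium 3' kit v3.1. Each deposited matrix holds whole-number UMI counts for genes by barcodes, made by the authors with Cell Ranger 4.0.0 on GRCm38 (mm10), per the submitters' processing notes; the sources used here name no annotation release. The 2 libraries held 127287281 and 137471506 UMIs. Doublets were not called.

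UMIs were summed per group of cells and divided by non-mitochondrial UMIs (Python 3.11.15, scipy 1.17.1). Genes averaging 5 CPM or more over the 4 sums were compared; a log2 ratio carries an exact conditional binomial interval, and a sum of 0 was set to a floor of 3 counts. Called means at least 1.5-fold. The calculation was tested on simulated data. Named genes were 18 set ones, the 12 highest and 12 lowest of at least 20 CPM by the smaller of both libraries' ratios, and up to 4 per list. Members, lists and markers were chosen with earlier results of these data known. Gene positions are from GENCODE vM21 (27722 of 27998 features found). Ribosomal protein shares use 87 genes.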

Additional observations from a re-analysis of the deposited data

Results flagged for a closer look

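Of the named genes, 3 had counting intervals on opposite sides of 0 in the libraries; the difference was not tested. Ctss, the cathepsin S gene of macrophages, had a log2 ratio of 2.15 labelled WT and -3.82 labelled IPKO. Of its 31 UMIs in high-mitochondrial cells labelled WT, 30 came from 1 cell, so the positive ratio rests on that cell. Labelled IPKO, 1 UMI was found. Scgb1a1, the club cell secretoglobin, had -2.25 and 3.65. Labelled IPKO, 17416 of its 17861 UMIs in high-mitochondrial cells came from 1 cell, leaving 445 in the others. The positive ratio labelled IPKO thus rests on that cell. Sftpb had 0.028 and -0.10, from 28244 and 15522 UMIs in 302 and 305 cells, with no cell above 422 UMIs.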

How the results depend on the processing

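No paired analysis was possible because each label has 1 library. No replicate could be left out. Of 1864 values recomputed under 21 alternatives (17 planned, 4 added after seeing the data), 538 moved beyond the counting interval or 1.5 times a count. For a list median, the range used ran from the median of its genes' lower limits to the median of their upper limits. That range is not an interval of the median itself. Of recomputed values for log2 ratios past 1.5-fold, 473 of 473 kept their sign. Genes higher and lower in both libraries numbered 441 and 438 as reported. They were 214 and 817 with all UMIs as denominator, 1150 and 187 without the 10 genes with most UMIs, 804 and 944 with the mean of cell shares, 287 and 1419 with reference cells reweighted to the members' depth, 255 and 236 with that and an Sftpc share of at least 1%, 962 and 1328 for members at 15 to 20%, and 1877 and 49 without Gm42418, Malat1 and Lars2 in the denominator. Members at 10 to 15% gave 202 lower genes and the window of 5000 to 10000 UMIs 891. Genes higher in both were 816 with a mean of at least 1 CPM and 177 with at least 20 CPM.

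Medians below are labelled WT, then IPKO. Nuclear noncoding RNAs: 1.69 and 1.85 at 15 to 20%, 1.36 and 2.06 without the 3 genes, and labelled WT 1.24 without the top 10, 1.35 with the mean of shares and 1.52 in the window. Surfactant and secreted products: -0.50 and -0.82 with all UMIs, -0.24 and -0.46 without the top 10, -0.084 and -0.091 at member depth, -0.23 and -0.38 with the Sftpc minimum added, -0.67 and -0.93 at 15 to 20%, -0.12 and -0.24 without the 3 genes, and labelled WT -0.63 with the mean of shares and -0.30 at 10 to 15%. Immediate early genes: -0.68 and -0.10 at member depth, -0.073 and 0.087 with the Sftpc minimum added, 0.35 and 0.83 without the 3 genes, labelled IPKO 0.61 without the top 10 and 0.078 in the window, and labelled WT -0.090 against reference cells of at most 5%. Ribosomal proteins: -0.71 and -1.16 with all UMIs, -0.46 and -0.80 without the top 10, -0.83 and -1.14 with the mean of shares, -0.70 and -1.41 at member depth, -0.41 and -0.85 with the Sftpc minimum added, -0.45 and -0.83 at 10 to 15%, -1.20 and -1.44 at 15 to 20%, -0.33 and -0.58 without the 3 genes, and labelled WT -0.88 in the window. The cause of these shifts was not tested. Members were 3.38% and 3.06% of all barcodes, and 3.21% of cells labelled IPKO with at least 1000 genes. Depth limits genes such as Ddit3 and Airn, whose intervals include 0.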

Other observations

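Among the 12 lowest genes by the smaller of both ratios were several with short products and varied roles: Gm561 (-1.10 and -1.64), Smagp (-0.99 and -1.09), Scgb1c1, a secretoglobin (-0.97 and -1.04), Smim11 (-0.97 and -1.15), Naa38, an acetyltransferase subunit (-0.94 and -1.06), Mrpl36, a mitochondrial ribosomal protein (-0.93 and -1.12), Rgs10, a regulator of G protein signalling (-0.91 and -1.55), Ebp, a sterol isomerase (-0.91 and -1.07), and Bex1 (-0.90 and -0.95). The 12 highest also held Erdr1 (1.07 and 1.76) and Paxbp1 (1.05 and 1.07).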
